A study of Mus musculus with 12 samples.

Results

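Lower glycolysis is described here through 10 genes, from aldolase to lactate dehydrogenase, in mouse bone marrow-derived macrophages (BMDM). The members were chosen by gene symbol: Aldoa, Aldoc, Tpi1, Pgk1, Pgam1, Eno1, Eno2, Eno3, Pkm and Ldha, 10 genes out of 54446 rows of the count table. Aldoa has 2 rows, 1 of which held at most 4 counts in a library. That row failed the filter and has no fold here, though the summed member level and the aldolase total include it. All 10 members passed the filter on low counts, among 13773 genes tested.

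RNA was sequenced from 12 libraries in 4 groups of 3, and the series' title names the question, how loss of NLRC3 bears on glycolytic genes under lipopolysaccharide (LPS), a bacterial ligand of Toll-like receptor 4. Marrow was taken from thigh and shin bones, and the cells were kept with recombinant M-CSF, the growth factor of macrophages. The groups are LysM-Cre+ NLRC3 fl/fl macrophages (NLRC3ΔMac, labelled KO) with LPS, LysM-Cre- NLRC3 fl/fl macrophages (labelled WT) with LPS, the labelled KO in RPMI 1640 medium without LPS, and the WT in that medium. Treatment lasted 12 h. Every group carries the floxed Nlrc3 alleles, and only the KO carries Cre, which the LysM promoter drives in myeloid cells. The mice's ages were not found in the labels. No label says that the replicates of a group are different animals. Each p-value therefore sets a difference against the scatter among these libraries alone. The edgeR fit estimates that scatter over all 4 groups, with information shared between genes, and part of it may be technical.

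The labels did not match the RNA of 4 check genes. Nlrc3, the targeted gene, measured 12.9, 6.68 and 4.91 CPM under the label KO LPS, against 1.04, 4.32 and 1.71 CPM in WT LPS (counts per 1000000, here and below scaled by edgeR's trimmed-mean factors unless called plain). In medium it measured 1.42, 1.21 and 1.11 CPM under the label KO, against 7.30, 12.3 and 7.09 CPM in WT. Nlrc3 was therefore higher with the KO label under LPS and lower with it in medium. Nos2, the inducible nitric oxide synthase that LPS is known to raise, reached 0.560 to 4.51 CPM in labelled KO LPS and 818 to 3303 CPM in WT LPS. In medium, Nos2 reached 1634 to 3859 CPM in labelled KO and 3.53 to 5.72 CPM in WT. Il6 and Acod1, a cytokine and the enzyme that makes itaconate, had the same split. The groups are therefore called by their labels throughout, and no direction below is attributed to genotype or treatment as such. Library totals ran from 13082947 to 20960505 counts, and 3 counts, the floor, equal 0.143 to 0.229 plain CPM.

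Aldolase (Aldoa, Aldoc) splits fructose 1,6-bisphosphate into triose phosphates, triosephosphate isomerase (Tpi1) interconverts them, and phosphoglycerate kinase (Pgk1), phosphoglycerate mutase (Pgam1), enolase (Eno1, Eno2, Eno3) and pyruvate kinase (Pkm) carry the chain to pyruvate, with ATP made by Pgk1 and Pkm. Lactate dehydrogenase A (Ldha) turns pyruvate into lactate and restores NAD+. Macrophages activated with LPS are known to increase glycolysis, and several of these genes are known targets of the transcription factor HIF-1.

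The promoter windows of 3 members are shown because these genes passed the interaction test below and their windows hold no exon base of the annotation, a choice made after their values were seen. The windows of Tpi1 and Eno2, the other members that passed that test, overlap annotated exons and are not printed; each holds 0 of the places described next. Each is the 250 bases before a transcript start on its own strand, from RefSeq on GRCm38.p6. The capitals mark ACGTG on either strand, the core of the HIF response element; where 2 overlap as CACGTG, that place is counted once.
Pgk1 (chrX:106186850-106187099, + strand): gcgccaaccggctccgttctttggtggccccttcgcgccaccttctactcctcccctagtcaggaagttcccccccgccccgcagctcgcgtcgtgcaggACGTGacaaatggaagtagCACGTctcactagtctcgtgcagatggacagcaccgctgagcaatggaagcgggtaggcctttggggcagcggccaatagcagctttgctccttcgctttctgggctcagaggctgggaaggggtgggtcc
Ldha (chr7:46845554-46845803, + strand, the first of 2 windows): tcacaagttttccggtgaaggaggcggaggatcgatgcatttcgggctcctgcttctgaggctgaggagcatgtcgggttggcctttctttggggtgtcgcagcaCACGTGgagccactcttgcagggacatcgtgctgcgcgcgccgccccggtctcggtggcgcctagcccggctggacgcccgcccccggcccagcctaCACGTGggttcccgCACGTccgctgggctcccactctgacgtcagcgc
Ldha (chr7:46846832-46847081, + strand, the other window): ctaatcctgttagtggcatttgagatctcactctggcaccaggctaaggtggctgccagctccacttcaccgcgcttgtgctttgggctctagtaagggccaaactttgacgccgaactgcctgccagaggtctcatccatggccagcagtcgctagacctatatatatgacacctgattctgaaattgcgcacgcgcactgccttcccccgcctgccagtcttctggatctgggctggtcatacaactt
Eno3 (chr11:70656926-70657175, + strand): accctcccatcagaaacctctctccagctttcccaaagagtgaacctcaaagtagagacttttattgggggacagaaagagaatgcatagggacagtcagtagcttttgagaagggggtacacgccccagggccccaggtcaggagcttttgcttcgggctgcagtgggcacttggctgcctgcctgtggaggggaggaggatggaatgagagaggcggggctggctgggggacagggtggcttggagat
The first Ldha window held 3 such places, whose first bases lie 145, 48 and 34 bases before the start, and the other Ldha window held 0. The Pgk1 window held 2, at 150 and 131 bases before the start, and the Eno3 window held 0. Across the 17 windows of the 10 members, 35.3% held at least 1 place, against 16.6% of all 32851 windows of that length. Windows of 1 gene can overlap: 2 windows of Aldoa share 174 bases and hold the same place, and 2 of Eno1 share 223. Counted once, 5 of 15 member windows (33.3%) held a place, with overlaps among all windows not removed. At least 2 places were in 11.8% of the member windows and in 1.95% of all windows. These are matches of letters only.

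Levels are compared between genes per length, in FPKM (fragments per kilobase, scaled by library total, from the deposited table). Pkm had the highest mean level, 537 ± 154 FPKM (SD over 12 libraries), followed by Aldoa with 421 ± 110 FPKM and Ldha with 340 ± 137 FPKM. Pgk1 (214 ± 88.2 FPKM), Tpi1 (171 ± 57.9 FPKM), Eno1 (140 ± 55.9 FPKM) and Pgam1 (92.6 ± 30.8 FPKM) came next. Aldoc, Eno2 and Eno3 lay far below, at 2.90 ± 1.68, 2.24 ± 1.18 and 2.22 ± 1.28 FPKM. Every neighbouring pair in this order differed by less than the larger SD, apart from Pgam1 and Aldoc. Among the 7 abundant members the order within groups departed from this one in a few places: Ldha stood above Aldoa in labelled KO medium (374 ± 70.4 and 341 ± 44.5 FPKM), and Eno1 stood above Tpi1 in labelled KO LPS (150 ± 104 and 140 ± 57.2 FPKM, SD, n = 3 each).

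The minor paralogs are near counting limits in some libraries. Eno3, on chromosome 11 (70657202-70662513 in mm10), had 22 to 123 counts, Aldoc, also on chromosome 11, had 27 to 312, and Eno2 had 66 to 325. Near-identical copies of Eno1 held counts equal to 1.71 to 2.37% of Eno1's own, and those of Pkm 0.322 to 3.13%. These shares do not bound the error in the levels. The sources do not say how reads matching both a gene and its copy were counted. One of the Pkm copies, Gm49759, shares 767 exon bases with Pkm on the same strand. Copies of Pgk1, Tpi1, Pgam1 and Ldha held at most 0.917% of the member's counts, with the same limit. A copy of Pgk1 was 100% identical over 1255 bases, and one of Pgam1 over 765.

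**Figure D1:**
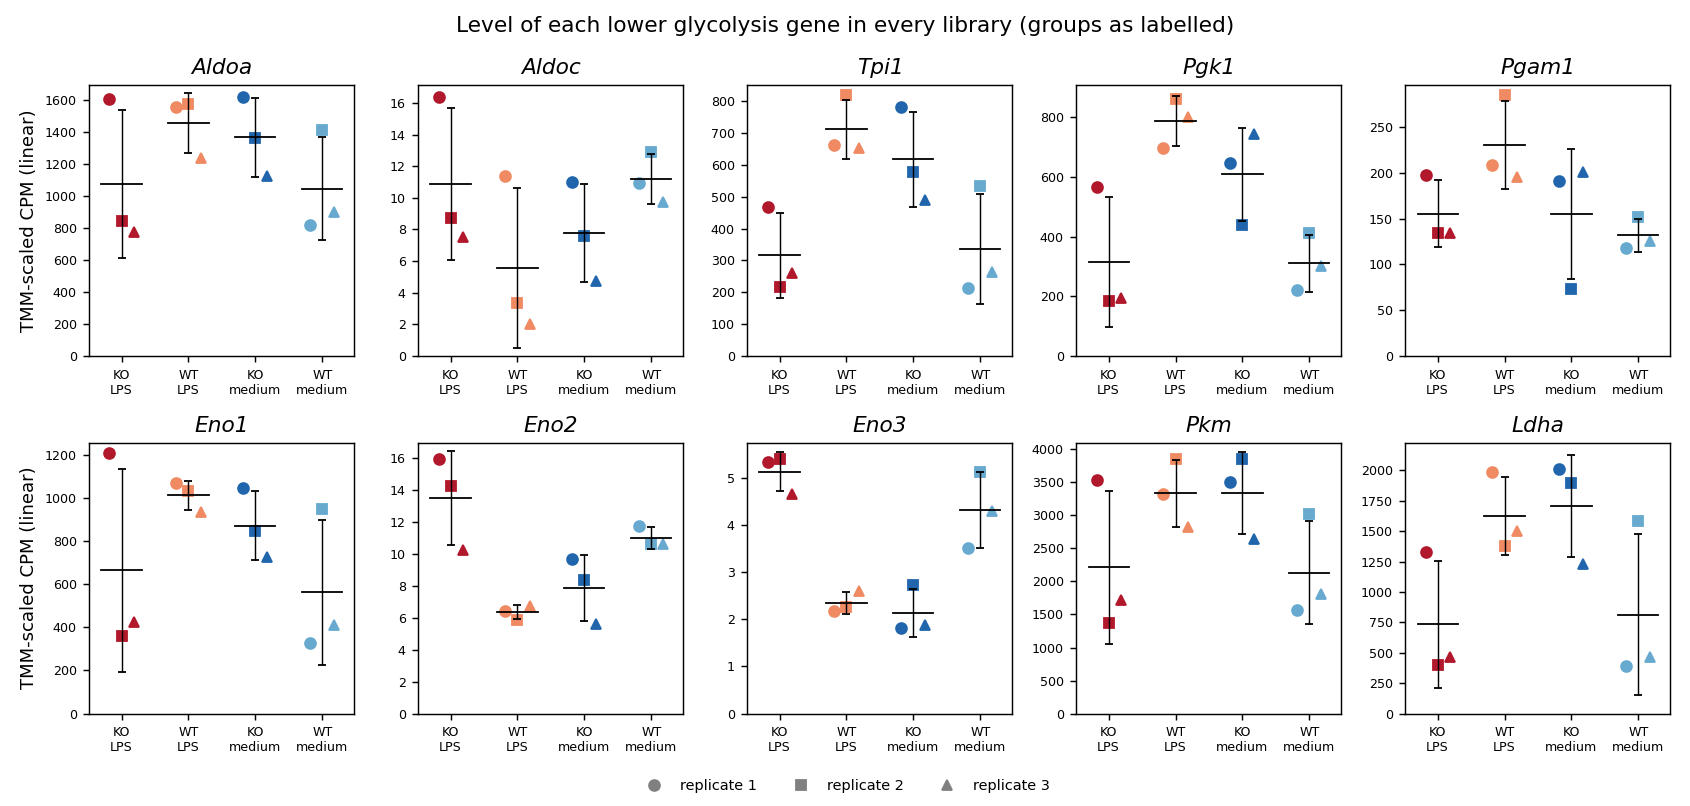
Level of each of the 10 members in each library (y axis: CPM scaled by trimmed-mean factors, linear from 0) in the 4 labelled groups (labelled KO LPS, WT LPS, labelled KO medium, WT medium); points are libraries, with the shape giving the replicate number, and the line and bar are the mean and SD. Replicate 1 of labelled KO LPS and replicate 2 of WT medium stand above the other two libraries of their group for most of the abundant enzymes, while Eno2 and Eno3 separate labelled KO from WT within each treatment.

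Tpi1 measured 469, 217 and 262 CPM in labelled KO LPS, against 662, 819 and 654 CPM in WT LPS. In medium it measured 783, 580 and 491 CPM in labelled KO, against 213, 535 and 265 CPM in WT. The LPS groups did not overlap, with the labelled KO lower, and the medium groups did, through WT medium replicate 2.

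Pgk1, the first of the ATP-forming steps (chromosome X, 106187100-106203699), measured 568, 183 and 195 CPM in labelled KO LPS, against 698, 863 and 801 CPM in WT LPS. In medium it measured 646, 438 and 744 CPM in labelled KO, against 221, 412 and 301 CPM in WT. The labelled KO lay wholly below WT with LPS and wholly above it in medium.

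Ldha, on chromosome 7 (46841475-46855627), measured 1332, 402 and 464 CPM in labelled KO LPS, against 1987, 1382 and 1501 CPM in WT LPS. In medium it measured 2008, 1893 and 1231 CPM in labelled KO, against 393, 1581 and 469 CPM in WT. Labelled KO LPS replicate 1 fell just short of the lowest WT LPS library, and WT medium replicate 2 lay among the labelled KO medium libraries.

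Eno2, the enolase known from neurons (chromosome 6, 124760053-124769673), measured 16.0, 14.3 and 10.3 CPM in labelled KO LPS, against 6.42, 5.87 and 6.76 CPM in WT LPS. In medium it measured 9.67, 8.37 and 5.62 CPM in labelled KO, against 11.8, 10.6 and 10.6 CPM in WT. Here the labelled KO was wholly above WT with LPS and wholly below it in medium, the reverse of Pgk1.

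Eno3, the enolase known from skeletal muscle, measured 5.34, 5.41 and 4.65 CPM in labelled KO LPS, against 2.17, 2.25 and 2.60 CPM in WT LPS. In medium it measured 1.81, 2.72 and 1.87 CPM in labelled KO, against 3.52, 5.13 and 4.30 CPM in WT. Neither pair of groups overlapped, and the directions were those of Eno2.

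The other members overlapped between the labelled KO and WT in both treatments on the trimmed-mean scale. Aldoa ran from 773 to 1604 CPM in labelled KO LPS and from 1238 to 1571 CPM in WT LPS, and Pkm from 1377 to 3535 CPM and from 2832 to 3850 CPM in those groups. Eno1 ran from 360 to 1207 CPM in labelled KO LPS and from 937 to 1068 CPM in WT LPS. In medium, Eno1 ran from 725 to 1046 CPM in labelled KO and from 328 to 950 CPM in WT. Pgam1 had a single low library in labelled KO medium, 72.7 CPM against 191 and 200.4 CPM in the other two. Aldoc was highest in replicate 1 of both LPS groups, at 16.4 CPM in labelled KO and 11.4 CPM in WT, while the remaining WT LPS libraries held 3.33 and 2.01 CPM.

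A pair of libraries stood apart within their groups. The 10 members together took 8950 CPM in labelled KO LPS replicate 1, against 3545 and 4004 CPM in replicates 2 and 3, and 8098 CPM in WT medium replicate 2, against 3680 and 4305 CPM in replicates 1 and 3. The 8 macrophage markers were split in these libraries, in plain CPM. In labelled KO LPS replicate 1, 3 of the 8 (Adgre1, Csf1r and Mertk) were the lowest of the group, 2 were the highest and 3 lay between. In WT medium replicate 2 the same 3 were the lowest of the group, 3 were the highest and 2 lay between. Adgre1 measured 558 CPM in labelled KO LPS replicate 1 and 1562 and 1808 CPM in the others of that group, and 389 CPM in WT medium replicate 2 against 1543 and 1634 CPM in the others of that group. Csf1r measured 1955 CPM against 3843 and 4246 in the first of these groups, and 1365 CPM against 3551 and 3790 in the second. The sum of all 8 macrophage markers was not low in WT medium replicate 2 (34830 plain CPM, against 32180 and 35760 in the others) and was 21230 in labelled KO LPS replicate 1, against 34430 and 22630. Most of each sum was Lyz2, at 30270 against 24170 and 27360 in WT medium, and 15280 against 25970 and 13340 in labelled KO LPS. The sums therefore say little of the other markers. Summed over 5 T cell markers, these libraries held 11.0 and 4.89 plain CPM, against 157 and 214 in the other labelled KO LPS libraries and 89.01 and 49.4 in the other WT medium libraries. Most of each sum was Cd4 alone. It held 9.909 CPM against 150 and 203.8 in labelled KO LPS, and 4.28 CPM against 80.6 and 45.45 in WT medium. Cd3e, Cd3g, Cd8a and Trac each held at most 3.445 CPM in these groups. Summed over 10 neutrophil markers, labelled KO LPS replicate 1 held 1103 plain CPM, against 5664 and 6898 in replicates 2 and 3, while WT medium replicate 2 held 876, within its group's range of 829 to 1228. Their part in the results was not tested. In bulk RNA, fewer cells of a type and less RNA per cell cannot be told apart.

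Between labelled KO and WT under LPS, Pgk1 fell and the enolase paralogs Eno2 and Eno3 rose. Of the 10 members, 2 rose and 1 fell, where 10.4% of all tested genes rose and 13.7% fell. Pgk1 averaged 316 ± 219 CPM in labelled KO LPS and 787 ± 83.3 CPM in WT LPS, a log2 fold of -1.32 ± 0.44 (SE; edgeR quasi-likelihood test, Benjamini-Hochberg adjusted p = 0.0458). Eno2 averaged 13.5 ± 2.94 CPM and 6.35 ± 0.449 CPM in those groups, a log2 fold of 1.09 ± 0.28 (edgeR quasi-likelihood test, Benjamini-Hochberg adjusted p = 0.0151). Eno3 averaged 5.13 ± 0.419 CPM and 2.34 ± 0.229 CPM, a log2 fold of 1.13 ± 0.31 (edgeR quasi-likelihood test, Benjamini-Hochberg adjusted p = 0.0213). Tpi1 missed the threshold, at a log2 fold of -1.17 ± 0.40 (edgeR quasi-likelihood test, Benjamini-Hochberg adjusted p = 0.0501). It passed with DESeq2 (adjusted p = 0.0178), and in edgeR with DESeq2's size factors (0.0439) or no filter (0.0476). Ldha missed it at -1.15 ± 0.57 (adjusted p = 0.164 by the same edgeR test). The remaining 5 had log2 folds between -0.61 (Eno1) and 0.98 (Aldoc) with edgeR adjusted p of at least 0.230. On the trimmed-mean scale the libraries did not overlap for 5 members, lower in labelled KO for Tpi1, Pgk1 and Ldha and higher for Eno2 and Eno3, where 18.3% of all tested genes were higher and 19.7% lower without overlap. In plain CPM, 3 members were higher and 0 lower without overlap. No share of all tested genes was computed on that scale, where their median log2 fold was 0.57. The plain CPM counts are therefore not read as a result about the members. The median member fold was -0.58, against 0.06 for all tested genes.

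These calls depend on single libraries. None of them held with a block by shared sample code, described below. The Pgk1 call ended when any of 5 libraries was left out (edgeR adjusted p 0.165 without labelled KO LPS replicate 2, 0.162 without replicate 3, and 0.0753, 0.0836 and 0.121 without WT LPS replicates 1, 2 and 3), and held without labelled KO LPS replicate 1, at a log2 fold of -2.05 (edgeR adjusted p = 0.00246). The Eno2 call ended without labelled KO LPS replicate 2 (edgeR adjusted p = 0.0593) or WT LPS replicate 1 or 3 (0.0504 and 0.0538), and the Eno3 call ended without those same libraries (0.0769, 0.0746 and 0.0633). With no filter on low counts Eno3 did not pass, at a log2 fold of 1.18 (edgeR adjusted p = 0.112). Without labelled KO LPS replicate 1, 5 members fell: Ldha, with a log2 fold of -1.90, Eno1 (-1.36), Pkm (-1.10), Tpi1 (-1.57) and Pgk1, where 15.7% of all tested genes fell. Without WT LPS replicate 1, Aldoc rose, with a log2 fold of 1.99 (edgeR adjusted p = 0.0214), where 6.15% of all tested genes rose.

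In medium, Eno3 fell in labelled KO relative to WT, and no other member passed. The count is 0 higher and 1 lower, where 14.0% of all tested genes rose and 12.3% fell. Eno3 averaged 2.14 ± 0.511 CPM in labelled KO medium and 4.32 ± 0.805 CPM in WT medium, a log2 fold of -1.02 ± 0.31 (edgeR quasi-likelihood test, Benjamini-Hochberg adjusted p = 0.0332). Pgk1 averaged 609.5 ± 156 CPM and 312 ± 95.8 CPM in those groups, a log2 fold of 0.97 ± 0.43 (edgeR quasi-likelihood test, Benjamini-Hochberg adjusted p = 0.119). Ldha and Tpi1 had log2 folds of 1.07 ± 0.57 and 0.87 ± 0.39, and Eno2 one of -0.48 ± 0.28, none past the threshold. On the trimmed-mean scale 1 member, Pgk1, was higher and 2, Eno2 and Eno3, were lower without overlap, where 21.2% of all tested genes were higher and 21.5% lower in that way. In plain CPM, 0 were higher and 4 lower. No share of all tested genes was computed on that scale, where their median log2 fold was -0.85. The plain CPM counts are therefore not read as a result about the members. The median member fold was 0.51, against -0.02 for all tested genes.

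The Eno3 call in medium held only without labelled KO medium replicate 2 (edgeR adjusted p = 0.0297) and ended without any of the other 5 libraries, or with no filter on low counts (log2 fold -1.13, edgeR adjusted p = 0.136). Those adjusted p were 0.110 and 0.0826 without labelled KO medium replicates 1 and 3, and 0.0542, 0.0606 and 0.0869 without WT medium replicates 1, 2 and 3 (edgeR). Neither the replicate block nor the block by shared sample code, both described below, kept this Eno3 call. Without WT medium replicate 2, Ldha (log2 fold 1.93) and Tpi1 (1.31) rose in labelled KO medium (edgeR adjusted p 0.0185 and 0.0249), where 17.2% of all tested genes rose and 16.1% fell.

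LPS against medium was compared within each label. In the libraries labelled KO, Eno3 rose with LPS, to 5.13 ± 0.419 CPM against 2.14 ± 0.511 CPM in medium, a log2 fold of 1.27 ± 0.32 (edgeR quasi-likelihood test, Benjamini-Hochberg adjusted p = 0.0109). The members' count is 1 higher and 0 lower, where 15.1% of all tested genes rose and 15.3% fell. The call ended without labelled KO medium replicate 1 (edgeR adjusted p = 0.0567) or with no filter (0.0575). Ldha (-1.22 ± 0.57), Tpi1 (-0.97 ± 0.40) and Pgk1 (-0.95 ± 0.43) had the lowest log2 folds, none past the threshold. On the trimmed-mean scale 1 member, Tpi1, was lower with LPS without overlap and 2, Eno2 and Eno3, were higher, where 22.5% of all tested genes were lower and 23.3% higher in that way. In plain CPM, 4 were higher and 0 lower. No share of all tested genes was computed on that scale, where their median log2 fold was 0.78. The plain CPM counts are therefore not read as a result about the members. The median member fold was -0.37, against 0.04 for all tested genes. Without labelled KO LPS replicate 1, Ldha (-1.98), Pgk1 (-1.68), Tpi1 (-1.37) and Pkm (-1.10) fell with LPS (edgeR adjusted p 0.0221, 0.00452, 0.0249 and 0.0372), where 17.5% of all tested genes fell and 18.3% rose. Without labelled KO LPS replicate 3, Eno2 rose (log2 fold 0.95, edgeR adjusted p = 0.0461), where 8.25% of all tested genes rose and 10.3% fell.

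In WT, no member passed under edgeR, where 11.9% of all tested genes rose with LPS and 6.46% fell. Before adjustment, 5 of the 10 members had p under 0.05 by that test, as did 4434 of the 13773 genes tested. Pgk1 averaged 787 ± 83.3 CPM in WT LPS and 312 ± 95.8 CPM in WT medium, a log2 fold of 1.34 ± 0.44 (edgeR quasi-likelihood test, Benjamini-Hochberg adjusted p = 0.0527). Tpi1 averaged 712 ± 93.1 CPM and 337 ± 173 CPM in those groups (log2 fold 1.08 ± 0.40, edgeR adjusted p = 0.0812). Ldha averaged 1623 ± 321 CPM and 814 ± 665 CPM (log2 fold 0.99 ± 0.57, edgeR adjusted p = 0.258). Eno2 and Eno3 had log2 folds of -0.79 ± 0.28 and -0.88 ± 0.31. DESeq2 called 4 of these, Pgk1 (1.31, adjusted p = 0.0197) and Tpi1 (1.05, 0.0446) higher and Eno2 (-0.84, 0.0240) and Eno3 (-0.91, 0.0277) lower. Of all genes that DESeq2 tested there, it called 12.1% higher and 8.51% lower. On the trimmed-mean scale 3 members, Tpi1, Pgk1 and Pgam1, were higher and 2, Eno2 and Eno3, lower without overlap, where 18.5% of all tested genes were higher and 15.4% lower in that way. In plain CPM, 1 was higher and 3 were lower. No share of all tested genes was computed on that scale, where their median log2 fold was -0.64. The plain CPM counts are therefore not read as a result about the members. The median member fold was 0.73, against -0.06 for all tested genes. Without WT medium replicate 2, Ldha (1.86) and Tpi1 (1.53) rose (edgeR adjusted p 0.0309 and 0.0204), where 11.9% of all tested genes rose. Without WT LPS replicate 1 Aldoc fell (-2.08, 0.0206), where 4.31% of all tested genes fell.

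**Figure D2:**
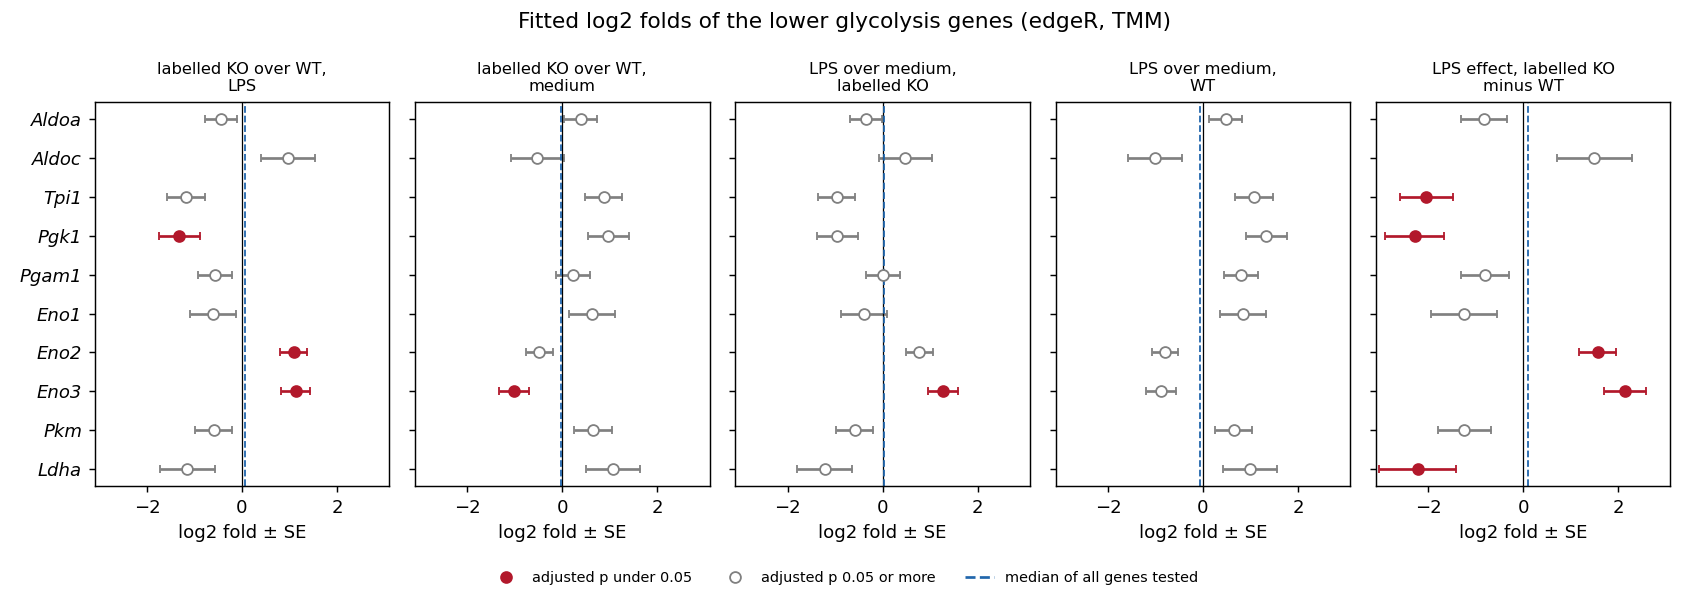
Log2 fold of each member (y axis: gene; x axis: log2 fold with SE bars) in 5 contrasts: labelled KO over WT with LPS and in medium, LPS over medium in labelled KO and in WT, and the interaction. Red points passed an adjusted p of 0.05 and the dashed line is the median of all tested genes; Tpi1, Pgk1 and Ldha lie left of it and Eno2 and Eno3 right of it in the interaction panel.

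The interaction asks whether the difference between labelled KO and WT differed between LPS and medium. It passed for 5 members: 2 higher, Eno2 and Eno3, and 3 lower, Tpi1, Pgk1 and Ldha, where 20.5% of all tested genes were higher and 20.6% lower. Out of 10 members, these counts are near the shares of all genes. Pgk1 had an interaction of -2.29 ± 0.61 on the log2 scale (edgeR quasi-likelihood test, Benjamini-Hochberg adjusted p = 0.0108) and Tpi1 one of -2.04 ± 0.56 (adjusted p = 0.0120 by edgeR). Ldha had -2.22 ± 0.81 (edgeR quasi-likelihood test, Benjamini-Hochberg adjusted p = 0.0449). Eno2 had 1.57 ± 0.39 and Eno3 2.15 ± 0.44 (edgeR quasi-likelihood test, Benjamini-Hochberg adjusted p = 0.00716 and 0.00238). Aldoa, Pgam1, Eno1 and Pkm had values of -0.82, -0.80, -1.24 and -1.24 and Aldoc had 1.499, none past the threshold. The median over the members was -1.03, against 0.11 for all tested genes. Tpi1, Pgk1, Eno2 and Eno3 kept their calls in each of the 12 fits that left out 1 library. The number of members past the threshold was 8 without labelled KO LPS replicate 1, 7 without WT medium replicate 2, 5 without WT LPS replicate 1, where Aldoc passed as well, and 4 in the others. The count of all genes moved as well: 21.8% were higher and 22.3% lower without labelled KO LPS replicate 1, 22.1% and 22.0% without WT medium replicate 2, and 18.2% and 17.9% without WT LPS replicate 1. In the remaining fits, 16.2% to 21.2% of all tested genes were higher and 16.7% to 20.7% lower.

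Ldha kept its interaction call only without labelled KO LPS replicate 1 or WT medium replicate 2 (edgeR adjusted p 0.00833 and 0.00445). It ended without labelled KO LPS replicate 2 or 3 (0.101 each), WT LPS replicate 1, 2 or 3 (0.102, 0.0517 and 0.0845), labelled KO medium replicate 1, 2 or 3 (0.107, 0.1004 and 0.0575), or WT medium replicate 1 or 3 (0.0951 and 0.0983; edgeR adjusted p throughout). Both of those libraries were also left out together. They were chosen because they are high in these members, so the values that follow depend on the outcome and are given as a description, with no test. Ldha had -3.87, Pgk1 -3.25, Tpi1 -2.93, Eno1 -2.59, Pkm -2.08 and Aldoa -1.495, and Eno2 had 1.48 and Eno3 1.995. These 8 members, 6 of them lower, were below an adjusted p of 0.05 there, as were 24.8% (higher) and 26.9% (lower) of all tested genes.

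The scaling of the libraries bears on the members' directions. With plain library sizes in place of trimmed-mean factors, the median of all tested genes moved to 0.57 for labelled KO over WT with LPS and -0.85 in medium, to 0.78 and -0.64 for LPS over medium in labelled KO and in WT, and to 1.43 for the interaction. The share of called genes that were higher moved with it, to 74.5% from 43.2% with LPS and to 16.1% from 53.4% in medium. For LPS over medium it was 81.9% against 49.7% in labelled KO and 24.4% against 64.8% in WT, and for the interaction 81.1% against 49.9%. On that scale Pgk1 had -0.84 with LPS (edgeR adjusted p = 0.146), and Pgk1, Tpi1 and Ldha lost their interaction calls, at -1.02, -0.79 and -0.96, while Eno2, Eno3 and Aldoc passed at 2.93, 3.47 and 2.90. In that interaction 47.9% of all tested genes were higher and 11.2% lower. Subtracting the median of all tested genes removes a shift common to all genes by construction; measured from it, the interaction of Pgk1 was -2.39 with trimmed-mean factors and -2.45 with plain library sizes, and that of Eno3 was 2.04 and 2.03. Trimmed-mean factors ran from 0.7025 to 1.4598. They were 0.704, 0.7025 and 0.7913 in labelled KO medium and 0.765, 1.0159 and 0.8185 in WT LPS. Those of labelled KO LPS were 1.2046, 1.2419 and 1.2311, and those of WT medium 1.3545, 1.103 and 1.4598.

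**Figure D3:**
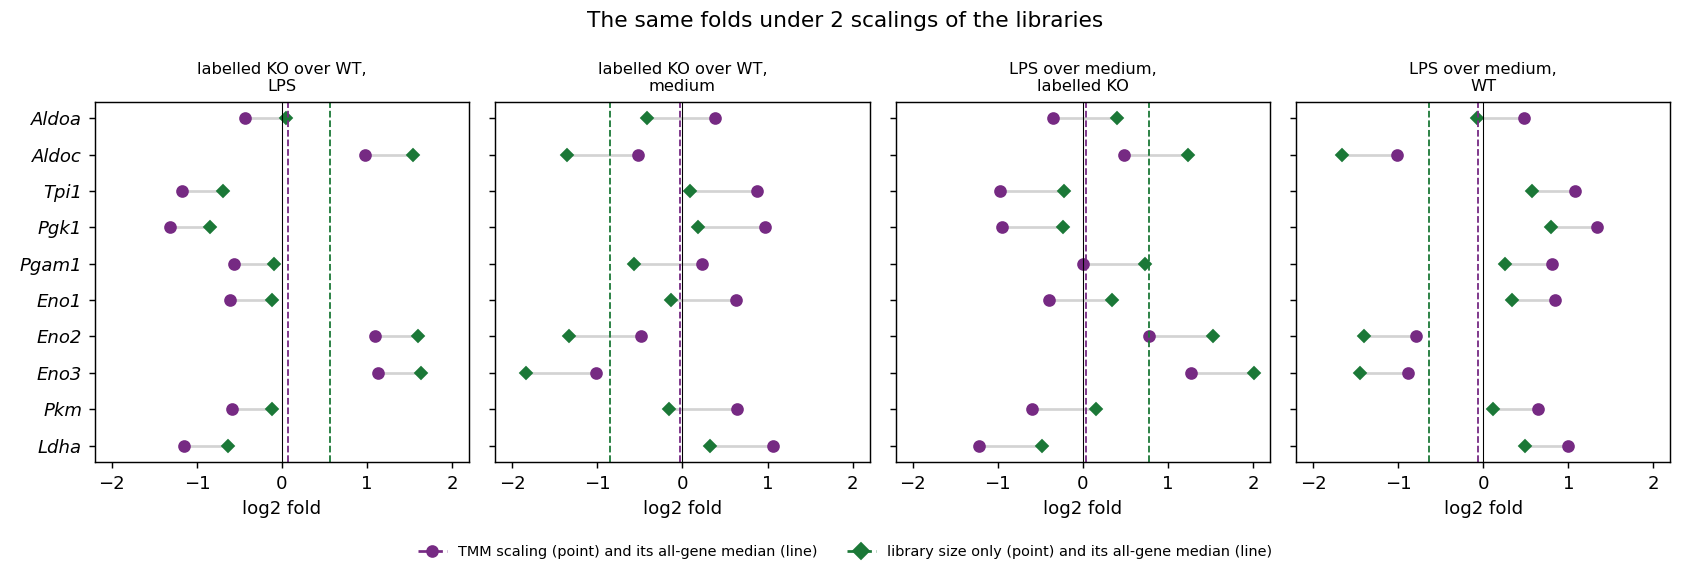
Log2 folds of the members (x axis) with trimmed-mean factors and with plain library sizes, in 4 contrasts, with the median of all tested genes under each scaling as a line. Members and median shift together: for labelled KO over WT with LPS the median is 0.06 with trimmed-mean factors and 0.57 with plain library sizes.

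The groups that shared an Nos2 level were also compared. Labelled KO medium against WT LPS gave member log2 folds from -0.57 (Pgam1) to 0.49 (Aldoc), with 0 members called and 0% of all tested genes. Labelled KO LPS against WT medium gave -0.15 (Ldha) to 0.29 (Eno2), with 0 members called and 0% of all tested genes. No member reached an unadjusted p under 0.05 in either, and over all genes 270 and 1135 did under edgeR, while DESeq2 called 1 and 39. A p that misses the threshold does not show that these groups are alike.

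Within each step with paralogs, the share of the minor forms was computed from FPKM. Eno3 made up 1.33%, 4.26% and 3.18% of summed enolase FPKM in labelled KO LPS, against 0.620%, 0.665% and 0.844% in WT LPS. In medium its share was 0.526%, 0.9753% and 0.786% in labelled KO, against 3.09%, 1.62% and 3.05% in WT. Eno1 made up the rest beside Eno2, which stood at 2.74% ± 1.35 in labelled KO LPS and 0.710% ± 0.0897 in WT LPS (SD, n = 3 each). In medium, Eno2 made up 1.01% ± 0.122 of enolase in labelled KO and 2.62% ± 1.30 in WT. Aldoc made up 0.893% ± 0.0279 of aldolase in labelled KO LPS and 0.327% ± 0.279 in WT LPS, and 0.492% ± 0.113 in labelled KO medium and 0.981% ± 0.186 in WT medium. Groups did not overlap for any of the 3 shares in any of the 4 comparisons, each with p = 0.1 (exact two-sided permutation test, the smallest p that 3 against 3 can give). The shares do not depend on the library scaling, and a share does not tell a higher minor form from a lower major form. In labelled KO medium against WT LPS, Eno2's share was 1.42 times as high without overlap, while those of Aldoc and Eno3 overlapped (exact permutation p = 0.1, 0.4 and 0.8).

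**Figure D4:**
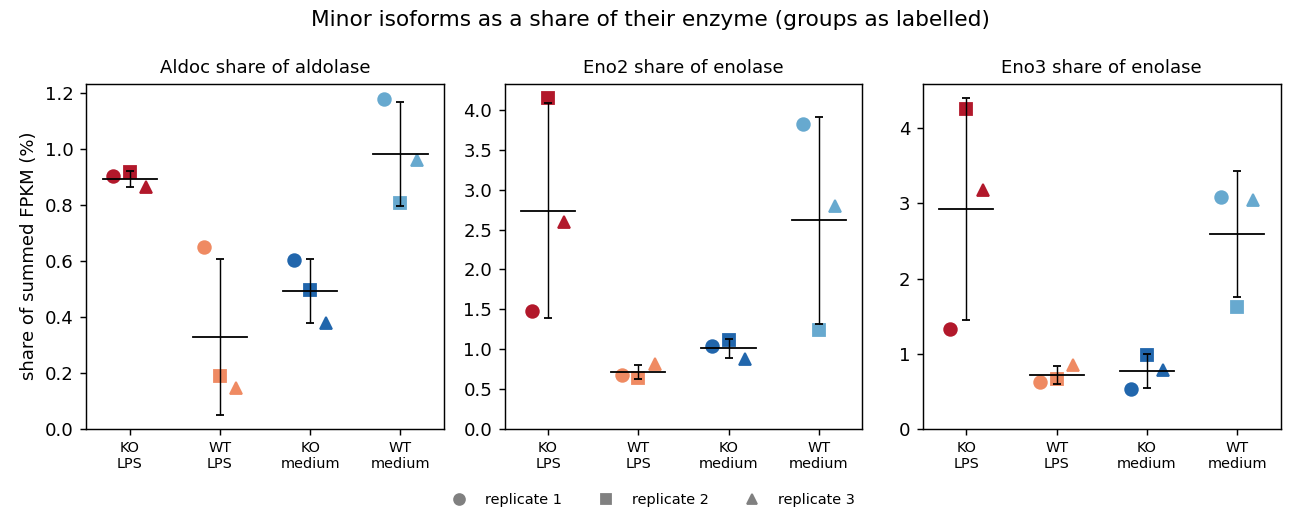
Share of Aldoc in summed aldolase FPKM and of Eno2 and Eno3 in summed enolase FPKM (y axis: percent, linear from 0) for each library in the 4 labelled groups; points are libraries and the line and bar are the mean and SD. All 3 shares are higher in labelled KO LPS than in WT LPS and lower in labelled KO medium than in WT medium, with no overlap.

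The abundant members varied together between libraries. Across 12 libraries, after group means were taken out, Pearson's r between log2 levels was 0.97 for Eno1 with Ldha, 0.96 for Tpi1 with Eno1 and 0.95 for Pkm with Eno1. Pgam1 had 0.23 with Ldha and 0.69 with Pgk1, and Eno2 had 0.20 with Eno3. These are descriptions over libraries that share their scaling. They rest in part on the high pair: without labelled KO LPS replicate 1 and WT medium replicate 2, over 10 libraries, Eno1 with Ldha had 0.78, Tpi1 with Eno1 0.90 and Pkm with Eno1 0.72, while Pgk1 with Ldha had -0.43, against 0.70 with them.

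For 4 members the most alike named genes were listed by Pearson's r of log2 CPM over the 12 libraries, group differences included, among 9051 candidates. Pgk1 was most alike to Eaf1 (0.977), Elk3 (0.968) and Ccl7 (0.954), and Ldha to Prelid3b (0.982), Esd (0.980) and Gadd45g (0.977). Eno1 was most alike to Id1 (0.943), Psmc1 (0.942) and Fabp7 (0.937). Eno2 was most alike to Letm1 (0.925), Ttc7b (0.922) and Gart (0.907).

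The steps before aldolase were read from a list of 7 genes. Of these, 4 fell in labelled KO relative to WT with LPS and 0 rose, and in medium 5 rose and 0 fell, where 10.4% of all tested genes rose and 13.7% fell with LPS and 14.0% rose and 12.3% fell in medium. The list's medians were -1.53 and 1.43, against 0.06 and -0.02 for all tested genes. Hk2, a hexokinase, had log2 folds of -1.53 ± 0.30 and 1.46 ± 0.30 in those contrasts (edgeR quasi-likelihood test, Benjamini-Hochberg adjusted p = 0.00417 and 0.00477). Pfkl, a phosphofructokinase, had -1.69 ± 0.27 and 1.43 ± 0.27 (edgeR quasi-likelihood test, Benjamini-Hochberg adjusted p = 0.00122 and 0.00272). With plain library sizes, 2 of the 7 rose and 4 fell with LPS, where 25.3% of all tested genes rose and 8.67% fell. In medium 2 of the 7 rose and 2 fell on that scale, where 7.77% of all tested genes rose and 40.5% fell. For LPS over medium with trimmed-mean factors, 0 rose and 5 fell in labelled KO, where 15.1% of all tested genes rose and 15.3% fell. In WT 5 rose and 0 fell, where 11.9% rose and 6.46% fell.

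Gapdh, which stands between Tpi1 and Pgk1, was listed at 2.91 to 11.0 FPKM in the 12 libraries, far below its neighbours in the pathway, and has many pseudogenes, so its values are uncertain. Its log2 folds, -0.81 ± 0.58 with LPS and 1.17 ± 0.58 in medium, did not pass (edgeR quasi-likelihood test, Benjamini-Hochberg adjusted p = 0.336 and 0.161). Of 9 further paralogs, Ldhb and Eno1b were tested and neither passed with trimmed-mean factors and the filter on low counts. With no filter, 1 of the 2 was called higher in labelled KO with LPS and in the interaction. Of all tested genes, 5.55% and 11.3% were higher there. With plain library sizes, 1 was called higher in the same contrasts and for LPS over medium in labelled KO. On that scale 1 was called lower for LPS over medium in WT. Of all tested genes, 25.3%, 47.9% and 38.6% were higher in the first of these and 23.2% lower in the last. Ldhb, the other main lactate dehydrogenase subunit, had a log2 fold of 1.35 ± 0.60 with LPS (edgeR quasi-likelihood test, Benjamini-Hochberg adjusted p = 0.118), where Ldha had -1.15.

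Of 11 tested genes of pyruvate and lactate handling, 1 rose and 3 fell in labelled KO with LPS, where 10.4% of all tested genes rose and 13.7% fell. In medium 3 rose and 1 fell, where 14.0% of all tested genes rose and 12.3% fell. The lactate exporter Slc16a3 had log2 folds of -2.16 ± 0.44 and 1.49 ± 0.44 (edgeR quasi-likelihood test, Benjamini-Hochberg adjusted p = 0.00521 and 0.0258). Slc16a1, a lactate transporter of the same family, had -3.02 ± 0.64 and 3.27 ± 0.64 (edgeR quasi-likelihood test, Benjamini-Hochberg adjusted p = 0.00590 and 0.00367). Pdk2, which restrains pyruvate dehydrogenase by phosphorylation, went the other way, with 2.9998 ± 0.58 and -2.73 ± 0.59 (edgeR quasi-likelihood test, Benjamini-Hochberg adjusted p = 0.00379 and 0.00604), while Pdk3, of the same function, had -1.27 ± 0.28 and 2.29 ± 0.28 (edgeR quasi-likelihood test, Benjamini-Hochberg adjusted p = 0.00679 and 0.000244). Of 12 non-glycolytic HIF genes, 0 rose and 6 fell in labelled KO with LPS, and 5 rose and 0 fell in medium, beside the same shares of all genes. Hif1a itself had -2.88 ± 0.52 and 1.70 ± 0.50 (edgeR quasi-likelihood test, Benjamini-Hochberg adjusted p = 0.00255 and 0.0265). With plain library sizes, 1 of the HIF genes rose and 5 fell with LPS, and 3 rose and 2 fell in medium. Of the pyruvate and lactate genes, 2 rose and 2 fell with LPS, and 2 rose and 4 fell in medium. On that scale 25.3% of all tested genes rose and 8.67% fell with LPS, and 7.77% rose and 40.5% fell in medium.

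Markers of other cells were measured beside these levels in plain CPM, as summed ranges over libraries. The 8 macrophage markers were all above 1 CPM in some library of each group, and summed to 21230 to 34430 in labelled KO LPS, 12620 to 19340 in WT LPS, 10060 to 12950 in labelled KO medium and 32180 to 35760 in WT medium. Lyz2 was the largest part of this sum in every library. The 10 neutrophil markers summed to 1103 to 6898, 956 to 4376, 1091 to 3106 and 829 to 1228 in those groups, and the 5 B cell markers to 11.6 to 83.8, 4.58 to 11.2, 3.43 to 5.59 and 7.03 to 12.5. The 5 T cell markers summed to 11.0 to 214, 3.52 to 36.2, 4.39 to 51.4 and 4.89 to 89.01, with Cd4 the largest part in every library. The 4 dendritic markers summed to 7.07 to 38.0, 11.6 to 25.6, 9.57 to 20.96 and 2.06 to 6.82, with Xcr1 at 0 in WT medium. The 6 erythroid markers summed to at most 8.63 in any library, with Alas2 at 0 in WT LPS and WT medium. The 4 megakaryocyte markers summed to 524 to 784, 143 to 491, 159 to 525 and 150 to 454, and the 6 stromal markers to 28.4 to 78.6, 38.4 to 265, 39.3 to 129 and 48.2 to 120.4. Their part in the results was not tested.

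Because Eno3 and Eno2 are known from muscle and nerve, markers of those tissues were read as well. The 6 skeletal muscle markers summed to 1.58 to 2.17 plain CPM in labelled KO LPS, 1.22 to 3.05 in WT LPS, 1.28 to 2.49 in labelled KO medium and 2.67 to 7.49 in WT medium, and Mb was at 0 in the first 3 of these groups. The 6 neural markers summed to 1.04 to 2.46, 1.46 to 2.25, 1.63 to 1.89 and 2.10 to 3.52, and Snap25 was at 0 in every library. The muscle sum in labelled KO LPS, where Eno3 rose relative to WT LPS, lay within the range of WT LPS. In medium, both Eno3 and the muscle sum were higher in WT than in labelled KO, and the part of these transcripts in the result was not tested.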

How the data were processed

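RNA sequencing of 12 mouse BMDM libraries was analysed from 2 gene tables. RNA was extracted with TRIzol per the labels' protocols, which name both a TruSeq and a KAPA Stranded kit. The build is mm10, per the submitters' processing notes; the sources used here name no aligner, counter, annotation or strand setting, so overlapping genes are uncertain. The deposited count table holds whole-number counts that the authors had not normalized. The deposited FPKM are those counts scaled by the authors by library total and length, with a spread of at most 0.00902% in that ratio, and are no second measurement.

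Counts were fitted with edgeR 4.0.16 in R 4.3.3 (glmQLFit, glmQLFTest, trimmed-mean factors, filterByExpr, 1 mean per group over 12 libraries) and called at a Benjamini-Hochberg adjusted p under 0.05 over 13773 genes; SE came from the F statistic. The fit was tested on simulated data. The alternatives were DESeq2 1.42.0, its size factors, plain library sizes, no filter, a replicate block, leaving out each library and, added after the data were seen, leaving out 2 high libraries together and a block by sample code. Isoform shares were tested by exact permutation with scipy 1.17.1. Near copies were found with blast 2.17.0, at 95% identity or more over 200 or more bases. Positions are from GENCODE M21, which held 54409 of the identifiers and not the other 37. The named genes are the 10 members, the check genes and fixed pathway and marker lists, and for 5 members the 3 most alike named genes of at least 5 CPM; those of Aldoc are not reported here. Members and lists were chosen with earlier results of these data known. Library totals, 13082947 to 20960505 counts, limit precision, and the floor of 3 counts covers counting error only.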

Additional observations from a re-analysis of the deposited data

Results flagged for a closer look

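For 5 members the difference between labelled KO and WT differed between LPS and medium by the interaction term (edgeR quasi-likelihood test, Benjamini-Hochberg adjusted p under 0.05), where 20.5% of all tested genes were higher and 20.6% lower. With 2 of the 10 members higher and 3 lower, the counts are near those shares. They are not read as particular to these genes. The interaction was -2.29 for Pgk1, -2.04 for Tpi1 and -2.22 for Ldha on the log2 scale. It was 1.57 for Eno2 and 2.15 for Eno3. The Ldha value passed in 2 of the 12 fits that left out 1 library, and the other 4 passed in all 12. The 4 check genes passed the same test, 1 higher and 3 lower, with a median of -14.1. They did not match the KO labels, so the term is not attributed to genotype or treatment.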

How the results depend on the processing

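With plain library sizes, member calls became 3 higher and 0 lower in the interaction. There 47.9% of all tested genes were higher and 11.2% lower. Member calls became 3, 2 and 3 in total for labelled KO over WT in medium and for LPS over medium in labelled KO and in WT. All genes called in these became 6644 (7.77% of those tested higher, 40.5% lower), 6494 (38.6%, 8.55%) and 4233 (7.5%, 23.2%). Not past the threshold under either scaling, these folds reversed with plain sizes. In the interaction, Aldoa had 0.47, Eno1 0.014, Pgam1 0.47 and Pkm 0.040. For labelled KO over WT in medium, Aldoa had -0.42, Eno1 -0.13, Pgam1 -0.57 and Pkm -0.16. Aldoa had 0.05 for labelled KO over WT with LPS. For LPS over medium in labelled KO, Aldoa had 0.40, Eno1 0.35 and Pkm 0.16, and in WT Aldoa had -0.068. For labelled KO LPS over WT medium, Aldoa had -0.018, Pgk1 -0.0515 and Pkm -0.0007, and for labelled KO medium over WT LPS, Ldha had -0.16. With DESeq2's size factors, Pgam1 had -0.0024 for LPS over medium in labelled KO, Pgk1 -0.021 for labelled KO LPS over WT medium and Pkm 0.0089 for labelled KO medium over WT LPS.

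With DESeq2, 2 members passed for LPS over medium in labelled KO, where 14.6% of all genes it tested rose and 15.1% fell. In WT 4 members passed, where 12.1% rose and 8.51% fell. Genes called by DESeq2 were 39 for labelled KO LPS over WT medium and 1 for labelled KO medium over WT LPS. Pgk1 had -0.0207 in the comparison of 39 and Pkm 0.0034 in the other. With no filter, members called with LPS stayed 3, with Tpi1 gained and Eno3 lost, where 5.55% of all tested genes rose and 7.19% fell. Members called were 0 for labelled KO over WT in medium, where 6.91% of all tested genes rose and 7.09% fell. For LPS over medium they were 0 in labelled KO (8.06% rose, 7.76% fell) and 1 in WT (6.02% rose, 3.77% fell). Genes called with no filter were 99 and 3 in the cross comparisons, and Pgk1 had -0.0126 for labelled KO LPS over WT medium.

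Replicate numbers did not pair the samples: 8 of 18 same-number correlations exceeded 0.1 (-0.63 to 0.57), and 7 of 18 were best with their own number. With the replicate block, members called were 2, 0, 1, 0 and 6 for labelled KO over WT with LPS and in medium, LPS over medium in labelled KO and in WT, and the interaction, and 0 in both cross comparisons. Before the cross comparisons, in that order, 8.79%, 12.7%, 12.7%, 10.5% and 19.1% of all tested genes were higher. Lower were 12.3%, 10.3%, 13.5%, 5.05% and 19.3%. Pgk1 with LPS had adjusted p = 0.0634 and Eno3 in medium 0.0516 (edgeR), and Aldoc passed in the interaction at 1.84. Under the block, Aldoa had -0.0028 and Pgk1 -0.079 for labelled KO LPS over WT medium.

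The descriptions carry sample codes. The numbers 45 and 50 each occur once in WT LPS (replicates 1 and 2) and once in WT medium (replicates 2 and 3). What the number means is not given. Deviations of the pairs with numbers 45 and 50 from their group means had r = 0.59 and 0.46. The codes of labelled KO medium replicates 2 and 3 differ only in their last digit. Whether those replicates share a source is not given, and the block by shared code did not join them. With a replicate block by shared code, added after the data were seen, members called were 0 for labelled KO over WT with LPS, 0 in medium, 1 and 0 for LPS over medium in labelled KO and in WT, and 6 in the interaction, where Aldoc passed as well. Genes called there were 2675, 2674, 4719, 2827 and 6066 of 13773 tested, and 0 in both cross comparisons. Eno2, Eno3 and Pgk1 with LPS had adjusted p of 0.0801, 0.0665 and 0.146, and Eno3 in medium 0.132 (edgeR). In that fit Aldoc, Ldha and Tpi1 had 0.40, 0.54 and 0.34 for labelled KO LPS over WT medium, and Aldoa, Eno1, Pkm and Tpi1 had 0.18, 0.13, 0.31 and 0.12 for labelled KO medium over WT LPS.

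Leaving out 1 library gave 0 to 7 members called for labelled KO over WT with LPS, 0 to 2 in medium, 0 to 5 for LPS over medium in labelled KO, 0 to 2 in WT and 4 to 8 in the interaction. Genes called ran from 1810 to 4093, 2196 to 4735, 2543 to 5095, 1384 to 3042 and 4709 to 6296 in those, and 0 to 245 for labelled KO LPS over WT medium and 0 to 2 for labelled KO medium over WT LPS. Folds that reversed ranged, for labelled KO LPS over WT medium, from -0.37 to 0.28 (Aldoa), -0.46 to 0.17 (Aldoc), -0.52 to 0.82 (Eno1), -0.91 to 0.73 (Ldha), -0.72 to 0.29 (Pgk1), -0.46 to 0.35 (Pkm) and -0.50 to 0.36 (Tpi1). For labelled KO medium over WT LPS they ranged from -0.23 to 0.035 (Aldoa), -0.041 to 0.28 (Ldha) and -0.15 to 0.15 (Pkm). Pgam1 ranged from -0.059 to 0.49 for labelled KO over WT in medium and from -0.30 to 0.25 for LPS over medium in labelled KO. With both high libraries left out, genes called for labelled KO LPS over WT medium were 249 and members called in the interaction 8, and Aldoa, Pgk1 and Pkm had -0.17, -0.55 and -0.21 for labelled KO LPS over WT medium.

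Within-group correlations without those libraries are given above with their values. Enolase and aldolase shares from raw counts in place of FPKM moved Aldoc in labelled KO LPS to 0.9999%, and Eno3 to 0.972%, 0.231%, 0.248% and 0.856% in labelled KO LPS, WT LPS, labelled KO medium and WT medium. The cause of these changes was not tested, other than fewer samples where libraries were left out. Depth limits Eno3 and Aldoc, whose counts fall to 22 and 27.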
